A study of Mus musculus with 8 samples.

Results

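The genes described here are interferon-stimulated genes, a set of 37 genes that cells switch on when interferon binds its receptors. They were chosen by name and looked up by symbol in the annotation of the array, and 34 of the 37 had a probe set named to them alone, among 17097 genes measured in all. Isg15, Ifi44 and Bst2 had no such probe set and are named only. Each gene was read from its brightest probe set by the mean of 8 arrays.

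The cells came from mouse skin squamous cell carcinoma (SCC), a tumour of keratinocytes. Spontaneous or DMBA-TPA induced tumours of K14-HPV16 mice, whose keratin 14 promoter drives human papillomavirus genes in basal keratinocytes, were grafted at the skin of nude mice and passed on serially. The strain is given as FVB/C57/Bl6, and no age is given. Nude mice lack a thymus and so most T cells, but keep other blood cells.

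The later stage was poorly differentiated SCC (PD-SCC, written PD/S-SCC in the labels) and the earlier stage well differentiated SCC (WD-SCC), each with 4 arrays. Both stages were taken from the tumour lineages OT7 (2 arrays per stage), OT14 and OT15 (1 array per stage each). In both stages the suspension was cleared of haematopoietic and endothelial cells and sorted for CD34 and α6-integrin, and the labels call the sorted cells cancer stem cells. Arrays are named as biological replicates, with no word on whether both OT7 arrays of a stage had a tumour each. The p-values thus cover only the spread between these samples, part of which may be technical, and their precision is limited by the number of arrays.

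Interferons are secreted proteins that mark a viral infection or misplaced nucleic acid. Type I interferon signals through Jak kinases to a transcription factor that holds Stat2 and Irf9 and binds a DNA sequence called the interferon-stimulated response element (ISRE). The genes switched on there include the sensors and transcription factors of the pathway itself, so that the response feeds forward, and effectors that block viral entry, translation and replication. Keratinocytes can make and answer interferon, and tumour cells can carry a standing interferon signature without a virus.

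The promoters of the genes were searched for the letters of interferon response elements. RefSeq promoter windows (build GRCm38.p6, 250 bases before to 50 after a start site) were given for 27 of the 37 genes. The ISRE core was searched as GAAANNGAAA on both strands. It was present for 13 of these 27 genes (48.1%), against 3.99% of all 27025 genes with a window and 3.59% of the 13605 such genes on the array. The GAS element of interferon gamma signalling, searched as TTCNNNGAA (the letters read alike on both strands), was present for 7 of 27 (25.9%), against 9.55% of all genes, and it overlapped the ISRE core only in Ifitm3 and Bst2. The 4 windows printed here are those of Ifit1 and Gbp3, which stood far higher on 1 PD-SCC array than on the others, of Rsad2, which ranged most widely over the arrays, and of Ifitm1, which differed most between the stages. The ISRE core, here always in its reverse orientation, is in capitals, and each window runs 5′ to 3′ on the strand of its gene.
Ifit1, chr19:34640639-34640938, plus strand: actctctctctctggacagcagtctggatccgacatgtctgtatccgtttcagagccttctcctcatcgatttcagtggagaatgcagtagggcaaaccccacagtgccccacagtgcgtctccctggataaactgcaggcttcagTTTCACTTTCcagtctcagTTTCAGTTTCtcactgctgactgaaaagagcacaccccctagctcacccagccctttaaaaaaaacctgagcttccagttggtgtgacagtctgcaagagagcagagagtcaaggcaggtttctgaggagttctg
Gbp3, chr3:142559794-142560093, plus strand: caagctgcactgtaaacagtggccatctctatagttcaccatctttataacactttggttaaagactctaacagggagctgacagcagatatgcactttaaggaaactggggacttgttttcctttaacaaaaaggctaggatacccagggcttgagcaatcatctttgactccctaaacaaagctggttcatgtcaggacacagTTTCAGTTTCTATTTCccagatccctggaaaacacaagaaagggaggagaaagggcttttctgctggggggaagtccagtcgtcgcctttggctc
Rsad2, chr12:26456403-26456702, minus strand: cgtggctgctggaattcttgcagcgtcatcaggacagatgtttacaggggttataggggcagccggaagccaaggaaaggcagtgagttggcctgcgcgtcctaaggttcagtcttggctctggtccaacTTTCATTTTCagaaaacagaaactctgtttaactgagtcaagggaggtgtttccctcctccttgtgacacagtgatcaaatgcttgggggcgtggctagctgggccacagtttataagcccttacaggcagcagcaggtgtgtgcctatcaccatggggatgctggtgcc
Ifitm1, chr7:140967826-140968125, plus strand: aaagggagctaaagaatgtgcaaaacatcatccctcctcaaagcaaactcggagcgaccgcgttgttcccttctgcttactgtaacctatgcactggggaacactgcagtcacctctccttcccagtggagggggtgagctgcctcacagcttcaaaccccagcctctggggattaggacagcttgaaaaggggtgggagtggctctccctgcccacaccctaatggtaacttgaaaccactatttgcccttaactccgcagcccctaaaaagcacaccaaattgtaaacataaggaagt
The matches of Ifit1 began at bases -104 and -85 from the start site, those of Gbp3, which overlap, at -45 and -39, and that of Rsad2 at -120. The window of Ifitm1 held neither set of letters, which says nothing of other sites outside it.

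Values are log2 units throughout. The median over all probe sets lay between 3.66 and 3.77 on the 8 arrays. The highest of 15 bacterial control probe sets without a spike, taken as the level of no signal (the control), was 3.61 to 3.81 on PD-SCC arrays and 3.82 to 4.37 on WD-SCC arrays. Of the 34 genes, 23 were above the control on all 8 arrays, 10 on some, and Ifit2 on none. Krt5 and Krt14, the keratins of basal keratinocytes, marked the WD-SCC cells at 10.53 to 11.62 and 10.36 to 11.24. In PD-SCC cells Krt5 was at 3.93 to 4.33 and Krt14 at 4.39 to 7.02, and the epithelial cadherin Cdh1 was under the control on all 4 PD-SCC arrays.

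**Figure D1:**
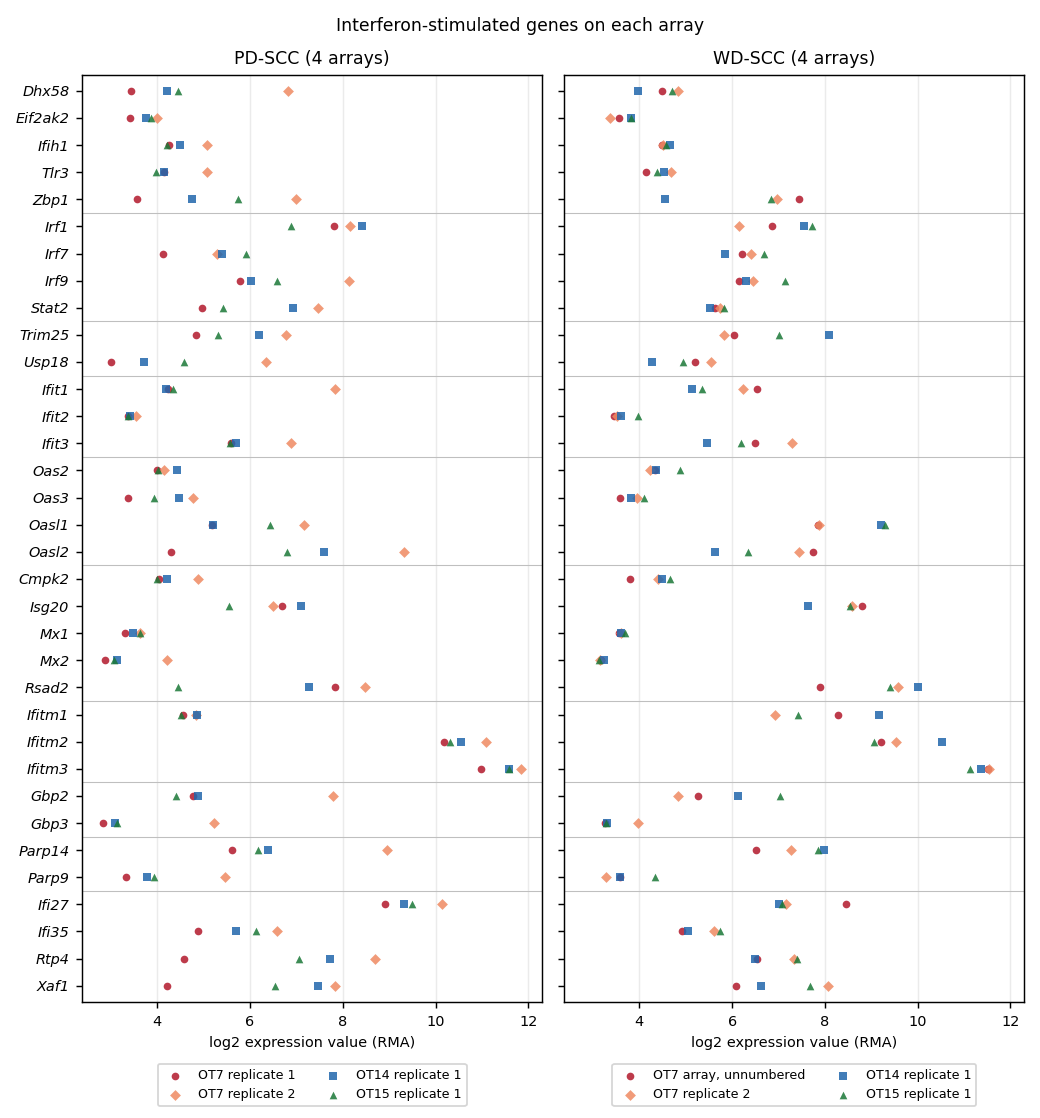
Log2 value of each of the 34 genes (rows, grouped by role) on the 4 PD-SCC arrays (left) and the 4 WD-SCC arrays (right), with a point per array coloured by lineage and replicate. On the PD-SCC side OT7 replicate 2 is the highest array for 29 genes and OT7 replicate 1 the lowest for 24.

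The stage comparison asked how the interferon-stimulated genes differed between PD-SCC and WD-SCC cells of the same lineages. Of the 34 genes, 4 passed the test. Ifitm1, Oasl1 and Isg20 were lower in PD-SCC cells, by 9.51-fold, 5.92-fold and 3.83-fold, and Ifi27 was 4.11-fold higher. The other 30 did not pass, and their PD-SCC and WD-SCC values overlapped. The test was limma on all 17097 genes with lineage as a block, two-sided, at an adjusted p (Benjamini-Hochberg) under 0.05.

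The share of genes that passed was near that of the whole table, so that the count says little of the set. Of the 34 genes 1 was higher, against 7.78% of all genes, and 3 were lower, against 4.81%. All 4 PD-SCC arrays stood above all 4 WD-SCC arrays in 1 of the 34 (10.8% of all genes) and below them in 3 (13.3% of all genes). The median difference was -0.08 for the 34 genes and -0.06 for all genes, and it was -0.31 for the 27 of the 34 left by a filter on dim genes and 0.12 for all genes left by it. Without OT7 PD-SCC replicate 2 the median of the 34 was -0.44 (all genes -0.06), and the calls were 0 higher and 4 lower. Parp14 (adjusted p = 0.0400, limma) and Trim25 (adjusted p = 0.0290, limma) were among these. Without OT7 PD-SCC replicate 1 the median was 0.09 (all genes -0.05) and the calls were Ifi27 higher and Ifitm1 lower. Of all genes, 906 and 886 passed without these arrays, against 2154 with all 8 arrays, so calls were lost over the whole table. Only Ifitm1 was called lower without either array of OT15, without either OT7 WD-SCC array or without OT7 PD-SCC replicate 1. Leaving out either array of OT15 gives the same fit, since the array left in that lineage has no partner stage.

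**Figure D2:**
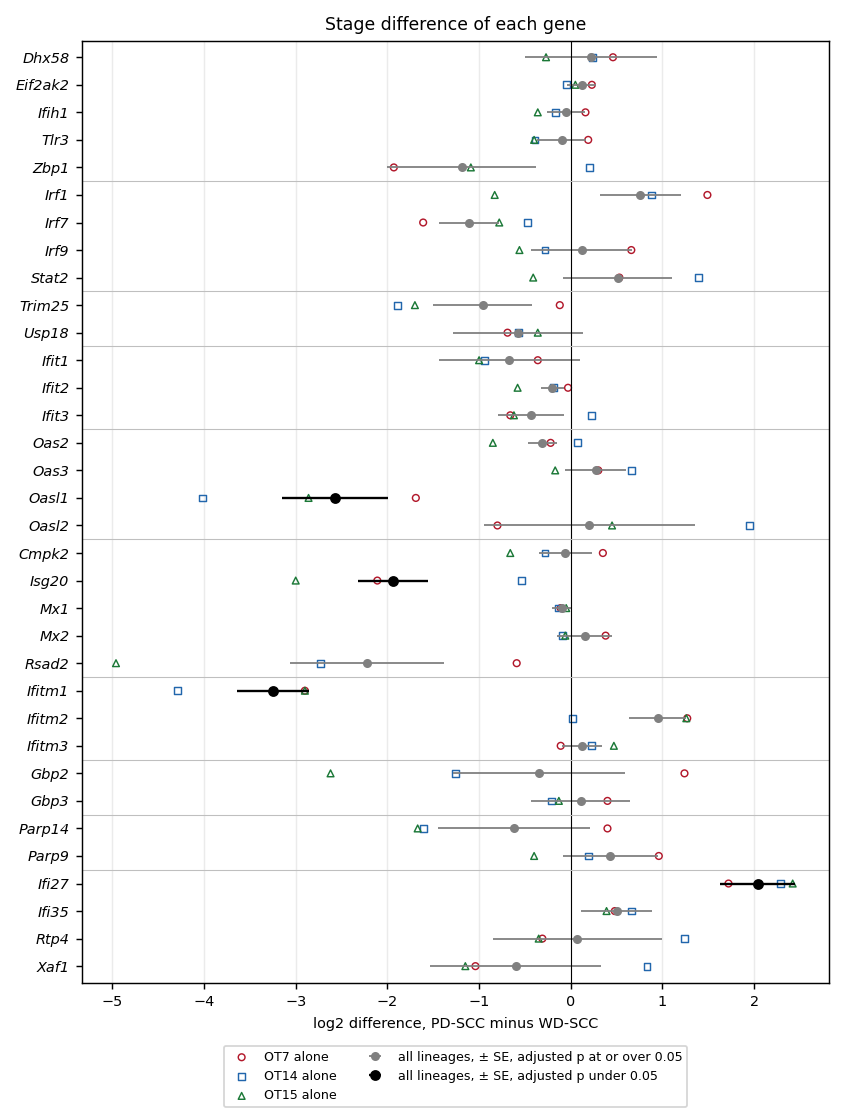
Log2 difference, PD-SCC minus WD-SCC, of each of the 34 genes (rows, grouped by role), as the value over all lineages with its standard error (filled; black where the adjusted p is under 0.05) and in OT7, OT14 and OT15 alone (open). Ifitm1, Oasl1 and Isg20 lie left of 0 and Ifi27 right of 0 in each lineage.

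Among the membrane proteins that stop viruses entering the cell, the 3 Ifitm genes did not move together. Ifitm1 (probe set 1424254_PM_at) was at 4.56 and 4.84 (OT7), 4.86 (OT14) and 4.51 (OT15) in PD-SCC cells, against 8.29 and 6.93 (OT7), 9.16 (OT14) and 7.41 (OT15) in WD-SCC cells. The PD-SCC values lie close together and all lie below the lowest WD-SCC value. The difference was -3.25 ± 0.39 (SE, 4 arrays per stage; adjusted p = 0.00850, limma), with -2.90 in OT7 and OT15 and -4.29 in OT14. The call held without any 1 array (adjusted p of 0.0108 to 0.0362), but not without lineage OT7 (adjusted p = 0.0704). For OT14 and OT15, leaving out either array gives the same fit as leaving out the lineage.

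Ifitm2, whose product acts mainly at endosomes, was among the brightest of the set, at 10.19 and 11.09 (OT7), 10.54 (OT14) and 10.32 (OT15) in PD-SCC cells, against 9.21 and 9.54 (OT7), 10.52 (OT14) and 9.06 (OT15) in WD-SCC cells. The stages overlap only through the OT14 WD-SCC array, and the difference of 0.95 ± 0.31 did not pass (adjusted p = 0.1, limma). Ifitm3, the most potent of the 3 against influenza virus, was bright on every array, at 10.98 to 11.85 in PD-SCC cells and 11.12 to 11.54 in WD-SCC cells. Ifitm1, Ifitm2 and Ifitm3 are neighbours on chromosome 7, and their values here thus differ within 1 cluster.

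Of the OAS family, whose enzymes make the second messenger that activates RNase L, Oasl1 and Oasl2 are the members with ubiquitin-like repeats. Oasl1 (1424339_PM_at), which in mice holds back the translation of Irf7, was at 5.19 and 7.16 (OT7), 5.20 (OT14) and 6.43 (OT15) in PD-SCC cells, against 7.85 and 7.87 (OT7), 9.22 (OT14) and 9.29 (OT15) in WD-SCC cells. The groups do not overlap, and the gap between them is smallest in OT7. The difference was -2.57 ± 0.58 (adjusted p = 0.0433, limma). Leaving out an array lifted the adjusted p to between 0.0722 and 0.120, except that it was 0.0197 without OT7 PD-SCC replicate 2, and the call was also lost with OT7 averaged (0.0809), array weights (0.0601) or no OT7 (0.0630).

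Oasl2 spanned 5.02 units over the arrays, the second widest range of the 34. It was at 4.29 and 9.31 (OT7), 7.59 (OT14) and 6.80 (OT15) in PD-SCC cells, against 7.74 and 7.45 (OT7), 5.64 (OT14) and 6.35 (OT15) in WD-SCC cells. Both the lowest and the highest of its 8 values thus belong to the OT7 PD-SCC arrays, and the stage difference of 0.20 ± 1.15 did not pass (adjusted p = 0.918, limma). Oas2 stayed between 3.99 and 4.43 in PD-SCC cells and between 4.24 and 4.87 in WD-SCC cells. Oas3 was at 3.37 to 4.77 in PD-SCC cells and at 3.59 to 4.10 in WD-SCC cells. The stage difference of Oas3 did not pass (adjusted p = 0.601, limma). It was above the control on 3 PD-SCC arrays and on no WD-SCC array, but the control itself was higher on WD-SCC arrays. In OT15 Oas3 was above the control only in PD-SCC cells, though it differed by -0.17 there.

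Among the effectors that act on nucleotides and RNA, Isg20 and Rsad2 were bright and the Mx genes dim. Isg20 (1419569_PM_a_at), an exonuclease that degrades single-stranded RNA, was at 6.70 and 6.49 (OT7), 7.10 (OT14) and 5.54 (OT15) in PD-SCC cells, against 8.81 and 8.59 (OT7), 7.64 (OT14) and 8.54 (OT15) in WD-SCC cells. Every PD-SCC value is below every WD-SCC value, and the 2 arrays of each OT7 stage nearly coincide. The difference was -1.94 ± 0.38 (adjusted p = 0.0311, limma), or 0.0714 to 0.0929 when any 1 array of OT7 or OT15 was left out, 0.157 with OT7 averaged and 0.308 without OT7.

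Rsad2, which encodes viperin, an enzyme that makes a chain-terminating nucleotide, had the widest range of the set. It was at 7.83 and 8.48 (OT7), 7.27 (OT14) and 4.44 (OT15) in PD-SCC cells, against 7.90 and 9.58 (OT7), 9.999 (OT14) and 9.40 (OT15) in WD-SCC cells. The stages meet in OT7 and part in OT15, where the PD-SCC array is 4.96 units below the WD-SCC array. The difference of -2.22 ± 0.84 did not pass (adjusted p = 0.138, limma), while a dimmer probe set of the gene (1421008_PM_at) had -2.19 with an adjusted p of 0.013 and the third had -1.73 with an adjusted p of 0.0581 in a limma fit on every probe set. Cmpk2, a mitochondrial nucleotide kinase gene next to Rsad2, ranged over 1.08 units. Of the GTPase genes Mx1 and Mx2, each was above the control on 1 PD-SCC array and on no WD-SCC array. The control itself was higher on WD-SCC arrays (3.82 to 4.37, against 3.61 to 3.81 on PD-SCC arrays). Mx1 was at 3.31 to 3.63 in PD-SCC cells and at 3.57 to 3.68 in WD-SCC cells. Mx2 was at 2.88 to 4.22 in PD-SCC cells and at 3.12 to 3.23 in WD-SCC cells.

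Ifi27, which encodes a small hydrophobic protein of intracellular membranes, was the gene higher in PD-SCC cells. Its probe set (1454757_PM_s_at) read 8.91 and 10.15 (OT7), 9.32 (OT14) and 9.49 (OT15) in PD-SCC cells, against 8.46 and 7.16 (OT7), 7.02 (OT14) and 7.07 (OT15) in WD-SCC cells. The stages come close only between the OT7 PD-SCC replicate 1 and the unnumbered OT7 WD-SCC array. The difference was 2.04 ± 0.41 (adjusted p = 0.0318, limma), with 1.72 in OT7, 2.29 in OT14 and 2.42 in OT15. The other probe set of the gene, whose label has no mark for shared probes, rose by 1.38 (adjusted p = 0.0322, limma fit on every probe set). The call was lost with cyclic loess (adjusted p = 0.0685), without OT7 PD-SCC replicate 2 (adjusted p = 0.0910), without OT7 WD-SCC replicate 2 (0.0822), without OT14 (0.0934) and without OT15 (0.0927).

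The remaining genes of mixed function were Ifi35, Rtp4 and Xaf1. Ifi35, a cytosolic protein gene, was at 4.89 and 6.59 (OT7), 5.70 (OT14) and 6.12 (OT15) in PD-SCC cells, against 4.91 and 5.61 (OT7), 5.05 (OT14) and 5.73 (OT15) in WD-SCC cells. It was higher in PD-SCC cells in each lineage by 0.39 to 0.66, short of the threshold (0.50 ± 0.39, adjusted p = 0.411, limma). Rtp4, a chaperone of membrane receptors, was at 4.58 and 8.69 (OT7), 7.73 (OT14) and 7.05 (OT15) in PD-SCC cells, against 6.54 and 7.34 (OT7), 6.49 (OT14) and 7.40 (OT15) in WD-SCC cells. As with Oasl2, the 2 OT7 PD-SCC arrays hold its lowest and its highest value (difference 0.07 ± 0.92, adjusted p = 0.964, limma). Xaf1, an antagonist of an inhibitor of apoptosis, spanned 3.84 units.

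The transcription factors of the pathway were all measured above the control on every array, and none passed. Stat2, a subunit of the factor that binds the ISRE, was at 4.97 and 7.47 (OT7), 6.92 (OT14) and 5.41 (OT15) in PD-SCC cells, against 5.64 and 5.74 (OT7), 5.53 (OT14) and 5.82 (OT15) in WD-SCC cells. The WD-SCC values nearly coincide and the PD-SCC values spread to both sides of them (0.51 ± 0.59, adjusted p = 0.575, limma). A dimmer probe set of Stat2 had a stage difference of -0.10. Irf9, the DNA-binding subunit of the same factor, was at 5.78 and 8.14 (OT7), 6.02 (OT14) and 6.58 (OT15) in PD-SCC cells, against 6.15 and 6.45 (OT7), 6.30 (OT14) and 7.14 (OT15) in WD-SCC cells, and the groups overlap (0.12 ± 0.55, adjusted p = 0.894, limma).

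Irf7, which amplifies the transcription of interferon genes, was at 4.12 and 5.29 (OT7), 5.39 (OT14) and 5.91 (OT15) in PD-SCC cells, against 6.22 and 6.40 (OT7), 5.85 (OT14) and 6.69 (OT15) in WD-SCC cells. The groups overlap only by the OT15 PD-SCC and OT14 WD-SCC arrays, and the difference was -1.11 ± 0.33 (adjusted p = 0.0828, limma). It passed with each array scaled to its 75th percentile (adjusted p = 0.0433, limma). That scaling puts the median of the 34 genes at -0.28 and that of all genes at -0.26. Irf7 also passed with values raised to the control (adjusted p = 0.0291, limma), when 10511 genes of the whole table passed. Irf1, a factor induced by both interferon types, was at 7.82 and 8.16 (OT7), 8.42 (OT14) and 6.89 (OT15) in PD-SCC cells, against 6.85 and 6.14 (OT7), 7.54 (OT14) and 7.72 (OT15) in WD-SCC cells. It was higher in PD-SCC cells by 1.49 in OT7 and 0.88 in OT14, and it differed by -0.83 in OT15 (0.76 ± 0.44 over all, adjusted p = 0.28, limma).

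Of the sensors of foreign nucleic acid, Zbp1 had the widest range, at 3.89 units. Zbp1, which recognises left-handed nucleic acid and can start necroptosis, was at 3.56 and 6.99 (OT7), 4.75 (OT14) and 5.75 (OT15) in PD-SCC cells, against 7.45 and 6.97 (OT7), 4.55 (OT14) and 6.83 (OT15) in WD-SCC cells. In PD-SCC cells OT7 replicate 1 was under the control while replicate 2 lay beside the WD-SCC cells of its lineage (-1.19 ± 0.81, adjusted p = 0.352, limma). Ifih1, the MDA5 receptor for long double-stranded RNA, ranged over 0.84 units, the endosomal receptor Tlr3 over 1.10, and Eif2ak2, the kinase PKR that stops translation, over 0.62 near the control. Dhx58, the LGP2 partner of MDA5, ranged over 3.38.

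Ifit1, whose protein binds viral RNA with an incomplete cap, was at 4.23 and 7.83 (OT7), 4.19 (OT14) and 4.34 (OT15) in PD-SCC cells, against 6.54 and 6.24 (OT7), 5.13 (OT14) and 5.34 (OT15) in WD-SCC cells. The other 3 PD-SCC arrays than OT7 replicate 2 lie below every WD-SCC array, and that array lies above them all (-0.67 ± 0.77, adjusted p = 0.575, limma). Its family member Ifit3 ranged from 5.57 to 6.88 in PD-SCC cells and from 5.46 to 7.30 in WD-SCC cells. The guanylate-binding protein genes Gbp2 and Gbp3, the ADP-ribosyltransferase genes Parp9 and Parp14, and the genes of the ISG15 conjugation system Usp18, which removes ISG15 from proteins, and Trim25, a ubiquitin ligase, did not pass either. Over the 19 genes not given array by array, the stage difference lay between -0.96 (Trim25) and 0.43 (Parp9). The smallest adjusted p was 0.255 (Oas2, limma). Parp9 was under the control on every WD-SCC array, and its difference did not pass (adjusted p = 0.595, limma). Its highest value was 5.47, on OT7 PD-SCC replicate 2, and in OT15 it differed by -0.40.

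The next comparison asked whether the stage difference itself differed between lineages. No gene of the 17097 passed the F test of the interaction (0.0% of all genes; limma, with 2043 at an unadjusted p under 0.05), and so none of the 34, of which Isg20 (unadjusted p = 0.00488, adjusted p = 0.22, limma), Irf1 (adjusted p = 0.364) and Rsad2 (adjusted p = 0.409) had an unadjusted p under 0.05. The residual spread of this test comes from the OT7 pairs alone, which limits what it can detect. As values without a test, the median difference of the 34 genes came to 0.07 in OT7 (all genes -0.08), to -0.12 in OT14 (all genes 0.01) and to -0.48 in OT15 (all genes -0.07). In OT15, 28 of the 34 were lower in the PD-SCC array, against 57.2% of all genes. In OT7 it was 17 of 34, against 57.5%, and in OT14 19 of 34, against 48.8%. A further count was over all lineages: 10 genes were lower in PD-SCC cells in every lineage (29.0% of all genes) and 3 were higher in every lineage (22.2% of all genes), namely Ifi27, Ifi35 and Ifitm2.

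Within OT7, where each stage had 2 arrays, Isg20 alone passed (-2.11, adjusted p = 0.0191, limma), as 1 of 34 lower against 2.87% of all genes. None was higher, against 6.21% of all genes. No gene differed between lineages at equal stage (0.0% of 17097 genes; limma F test, with 1251 of all genes and 0 of the 34 at an unadjusted p under 0.05).

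A wide difference among these genes lay between 2 arrays of the same lineage and stage. In PD-SCC cells replicate 2 exceeded replicate 1 in 33 of the 34 genes (53.6% of all genes), Isg20 being the exception, with a median of 1.37 against 0.02 for all genes. It was at least 2-fold higher in 21 of the 34, against 2.3% of all genes, and at least 2-fold lower in 0, against 1.2%. This is a comparison of 2 arrays, without a test. Over all genes the same 2 arrays were the most alike of all pairs, with a correlation across genes, which are not independent replicates, of 0.979.

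Of the 10 largest excesses of replicate 2 among all 17097 genes, 8 belonged to the set. They were Oasl2 (32.3-fold), Rtp4 (17.2-fold), Xaf1 (12.3-fold), Ifit1 (12.1-fold), Zbp1 (at least 9.68-fold), Dhx58 (at least 8.53-fold), Parp14 (10.2-fold) and Usp18 (at least 6.20-fold), where "at least" marks genes that were under the control on replicate 1. Other probe sets of these genes, dimmer on average, differed less, by 1.94 and 0.22 for Dhx58, 1.12 for Rtp4, 0.88 for Parp14, 0.19 for Zbp1 and 0.03 for Xaf1 (log2; the mean level was 3.02 for the second of Dhx58 and 3.33 for that of Xaf1, under the control of every array). The other two of the 10 were Gbp7, a further guanylate-binding protein gene, and Gm9706, chosen for mention after their values were seen, as were Xaf1, Dhx58, Parp14 and Usp18. Gm9706 is a pseudogene in RefSeq whose probe sets carry the maker's mark for probes that other transcripts may share, and whether they read Isg15, which had no probe set of its own, was not tested. With values raised to the control, 20 of the 34 stayed at least 2-fold higher, against 2.22% of all genes.

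The roles shared the difference unevenly. Both Gbp genes, both Parp genes, both genes of the ISG15 system and Ifi35, Rtp4, Xaf1 and Ifi27 were at least 2-fold higher on replicate 2. So were 3 of 4 transcription factors (Stat2 by 5.65-fold, Irf9 by 5.12-fold and Irf7 by 2.26-fold, while Irf1 differed by 1.26-fold), 3 of 4 OAS genes and 2 of 3 Ifit genes. A dimmer probe set of Stat2 (mean 4.19) differed less, by 1.22 on the log2 scale. Of the sensors only Zbp1 and Dhx58 reached 2-fold, of the 5 effectors on nucleotides and RNA only Mx2 (under the control on replicate 1 and so at least 1.41-fold), and of the Ifitm genes none. Of the 4 genes called by stage, Oasl1 and Ifi27 differed by 1.97 and 1.25 between these arrays, and Ifitm1 and Isg20 by 0.28 and -0.21.

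The 2 OT7 WD-SCC arrays gave no such pattern. Replicate 2 was at least 2-fold over the unnumbered array in 2 of the 34 genes (Xaf1 and Rsad2), against 6.16% of all genes, and at least 2-fold under it in 2 (Ifi27 and Ifitm1), against 3.38%, with a median of 0.05. The mean over the 34 genes was 4.97 on OT7 PD-SCC replicate 1, 6.76 on replicate 2, 5.69 on OT14 and 5.45 on OT15, against 5.92 and 6.06 (OT7), 5.96 (OT14) and 6.21 (OT15) in WD-SCC cells. One OT7 PD-SCC array thus lies below, and the other above, all 6 other arrays. For 29 of the 34 genes OT7 replicate 2 was the highest PD-SCC array, against 25.2% of all genes, and for 24 replicate 1 was the lowest, against 27.2%.

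**Figure D3:**
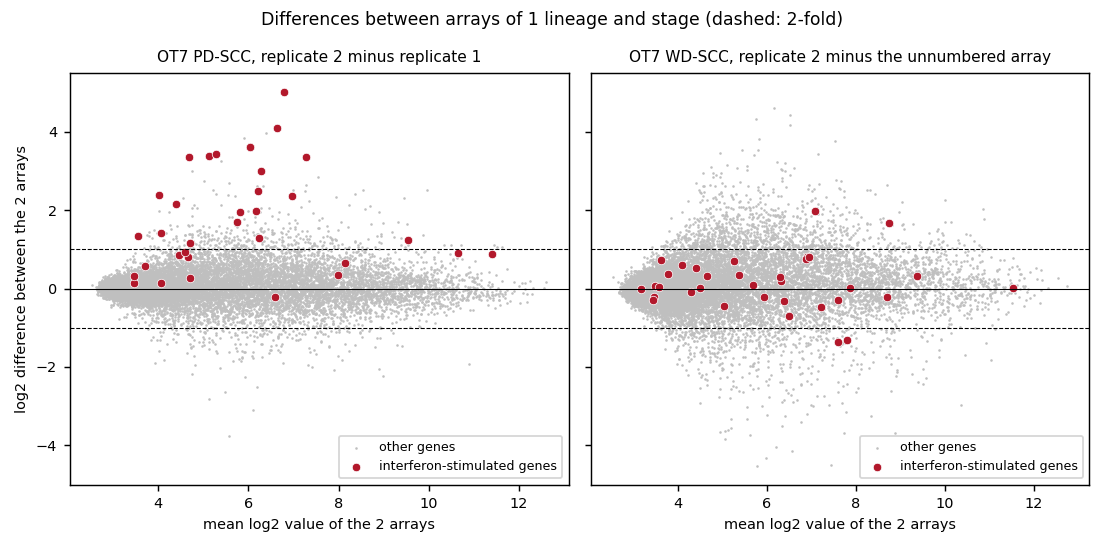
Log2 difference between the 2 OT7 arrays of a stage (vertical axis) against their mean log2 value (horizontal axis) for the 34 interferon-stimulated genes (red) and all other measured genes (grey), for PD-SCC (left) and WD-SCC (right), with 2-fold differences as dashed lines. In PD-SCC 21 of the 34 lie above the upper line and 0 under the lower one, and in WD-SCC 2 lie above and 2 under.

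The ISRE letters in the promoter windows, printed or not, did not part the genes in this respect. Among the measured genes with a window, the median difference between the OT7 PD-SCC arrays was 1.29 for the 11 with the ISRE core and 1.17 for the 13 without it. At least 2-fold higher on replicate 2 were 6 of the 11 and 7 of the 13. The window of Oasl2, the gene with the largest difference, held no match, and neither did that of Xaf1. Gbp3, whose window is printed, was under the control on replicate 1 and so at least 2.83-fold higher on replicate 2.

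Further interferon-stimulated genes, from a list of 44 that were measured, went the same way between the 2 arrays. Replicate 2 was at least 2-fold higher in 24 of them (2.3% of all genes) and at least 2-fold lower in 0 (1.2% of all genes), with a median of 1.13. Gbp7 differed by 3.97, the chemokine gene Cxcl10 by 2.85 and Igtp, an immunity-related GTPase gene, by 2.75. Of the 46 genes in the whole table that were at least 4-fold higher on replicate 2, 13 were in the set, 8 in this list and 25 in neither. By stage, 1 of the 44 rose in PD-SCC cells (7.78% of all genes), Gbp4 by 1.31 (adjusted p = 0.0197, limma). Also 1 fell (4.81% of all genes), Oas1g, by 1.68 on the log2 scale (adjusted p = 0.0356, limma). Ifi27l2a, from the gene family of Ifi27, had the largest difference of the list at -2.29 and did not pass (adjusted p = 0.0790).

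Of the genes upstream of the response, the interferons themselves were mostly dim. Of 7 interferon genes measured, 4 were above the control on no array, and the median difference between the OT7 PD-SCC arrays was -0.03. Ifna5 was lower in PD-SCC cells by stage (-0.72, adjusted p = 0.0317, limma), with 3.89 to 4.27 there and 4.27 to 5.13 in WD-SCC cells. Its values lay near the control, and it was above the control on only 3 WD-SCC arrays. Of 16 receptor and signalling genes, 1 rose (7.78% of all genes) and 2 fell (4.81% of all genes). They were Ptpn2, a phosphatase that acts on Jak kinases (1.00, adjusted p = 0.0356, limma), Irf8, a factor of myeloid cells (-1.87, adjusted p = 0.00724), and Irf5 (-0.74, adjusted p = 0.0198). Irf5 was near the control in PD-SCC cells, at 3.68 to 4.05, and above it on 3 of these arrays. Between the OT7 PD-SCC arrays the kinase gene Jak2 was 1.54 higher on replicate 2, the feedback inhibitor gene Socs3 1.22 and the receptor gene Ifnar2 1.02.

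Of 12 genes of nucleic acid sensing outside the set, 1 rose in PD-SCC cells (7.78% of all genes) and 1 fell (4.81% of all genes). Cgas, which makes the messenger that activates Sting1, rose by 0.90 (adjusted p = 0.00850, limma). The DNA receptor gene Tlr9 fell by 0.43 (adjusted p = 0.0437, limma), from 4.26 to 4.40 in WD-SCC cells to 3.78 to 4.05 in PD-SCC cells. These values lie near the control, which itself averaged 4.11 in WD-SCC and 3.69 in PD-SCC. Adar, which edits double-stranded RNA, had the largest difference of this list and did not pass (1.93, adjusted p = 0.135). Adar, Trex1, Samhd1 and Sting1 were 1.05 to 1.85 higher on OT7 PD-SCC replicate 2 than on replicate 1. Over the 79 measured genes of the pathway outside the set, 3 rose by stage (7.78% of all genes) and 5 fell (4.81% of all genes), so these counts say little of the pathway. On replicate 2, 31 were at least 2-fold higher (2.3% of all genes) and 0 at least 2-fold lower (1.2% of all genes).

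**Figure D4:**
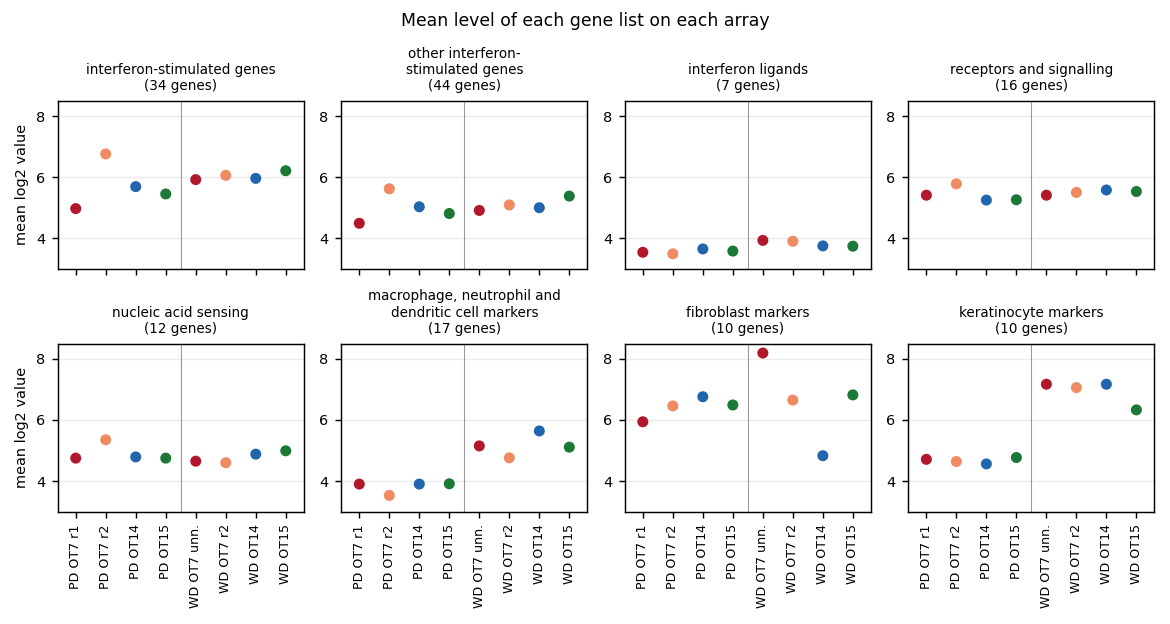
Mean log2 value of 8 gene lists on each array (PD-SCC arrays left of the line, WD-SCC arrays right of it; OT7 arrays carry their replicate number, unn. for the unnumbered one). The interferon-stimulated genes are lowest on OT7 PD-SCC replicate 1 (4.97) and highest on replicate 2 (6.76), while the macrophage, neutrophil and dendritic cell markers are lower in PD-SCC (3.53 to 3.91) than in WD-SCC (4.76 to 5.64).

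Interferon-stimulated genes are also expressed by blood, endothelial and stromal cells, so markers of those cells were read on the same arrays. In bulk samples, fewer cells of a type and less RNA per cell cannot be told apart. Of 17 markers of macrophages, neutrophils and dendritic cells, 4 were lower in PD-SCC cells by stage, against 4.81% of all genes. They were S100a8, S100a9, Cd68 and Cd74, and none was higher, against 7.78% of all genes. The mean level of the list was 3.53 to 3.91 on PD-SCC arrays and 4.76 to 5.64 on WD-SCC arrays. S100a8 and S100a9, which keratinocytes can also express, had the widest differences (-6.14 and -5.95), and without them the mean level was 3.54 to 3.88 on PD-SCC arrays and 4.06 to 4.88 on WD-SCC arrays, an alternative chosen after seeing the data. The median difference of the list was -0.67, and Ptprc, the pan-leukocyte marker, Adgre1, Itgam and Csf3r were under the control on every array. Of 10 endothelial and pericyte markers 2 were lower, Tie1 and Cldn5, against 4.81% of all genes (list mean 3.57 to 3.95 in PD-SCC, 3.98 to 6.22 in WD-SCC). Pecam1 (-2.66) and Cdh5 (-2.54) did not pass. Cdh5 was at 8.75 (OT7 replicate 2), 9.80 (OT14) and 9.47 (OT15) in WD-SCC cells, at 8.39 (OT15) in PD-SCC cells, and at 4.31 to 4.91 elsewhere. Of 10 fibroblast markers none passed (list mean 5.94 to 6.76 in PD-SCC, 4.83 to 8.19 in WD-SCC). The widest were Dpt (-2.72), Lum (-1.43) and Col3a1 (1.20). Of 10 keratinocyte and sort markers 5 were lower, Krt5, Krt14, Trp63, Epcam and Cdh1, against 4.81% of all genes (list mean 4.56 to 4.77 in PD-SCC, 6.33 to 7.17 in WD-SCC). Of the sort markers, Cd34 was 1.67 higher in PD-SCC cells and Itga6 0.30 lower, and neither passed. On the OT15 WD-SCC array Cd34 was at 3.58, under the control of that array (4.37), against 8.72 on the OT15 PD-SCC array. Itga6 was at 5.32 and 7.85 on these arrays. The part of this in the OT15 differences was not tested. Markers of these lists move with the stage, as Ifitm1, Oasl1, Isg20 and Ifi27 do, and the part of the listed cell types in those differences was not tested.

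Between the 2 OT7 PD-SCC arrays no listed marker of blood cells was at least 2-fold higher on replicate 2. The macrophage, neutrophil and dendritic cell list had a median of -0.29, with Cd68 at -1.14 and Lyz2 at -1.83, and the mean level was 3.53 on replicate 2. The list of 11 T, B and NK cell markers had a median of 0.01, with Cd3e at -1.51, and the endothelial list had -0.04. Of 10 fibroblast markers, Dcn (2.42), Col3a1 (1.70) and Pdgfrb (1.18) were at least 2-fold higher on replicate 2 (2.3% of all genes), and the list median was 0.17. The part of the fibroblast markers in the difference was not tested.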

How the data were processed

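Expression was measured in 8 samples of sorted tumour cells on Affymetrix mouse arrays (4 PD-SCC, 4 WD-SCC) after Trizol extraction and biotin labelling. The deposited values are log2 numbers made by the authors with affy and RMA, per the submitters' processing notes. RMA corrects background, equalises the distributions of the arrays and summarises probes, so a shift common to most genes is removed. No version of either is given in the sources used here. Log2 values lay between 2.4 and 13.24, and the depth of signal per array is given by the control probe sets.

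The array held 45141 probe sets: 28898 named to 1 gene, 551 to several, 15588 to none and 104 controls. By Entrez number 99.06% of genes matched RefSeq. Each gene took its probe set with the highest mean. The probe sets of Gbp2 (_x_), Ifi27 and Tlr3 (_s_) carry the maker's mark for probes that other transcripts may share.

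Fits used R 4.3.3 and limma 3.58.1, plots Python 3.11.15 and matplotlib 3.10.9. The stage fit had lineage as a block, since the series design describes the stages as steps of 1 lineage. Between stages, what was left after removing stage means correlated at -0.04 (OT7), 0.02 (OT14) and 0.06 (OT15), so the pairing rests on that text. The interaction and OT7 tests used 1 coefficient per lineage and stage. Alternatives changed the block, the dim gene filter, the probe set choice, the scaling, the prior variance, the weights and the arrays left out.

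The genes, lists and tests were chosen with earlier results of these data known. Values on every array are given for genes past an adjusted p of 0.05, for the 5 largest positive and 5 largest negative stage differences, for the 5 widest ranges and for Stat2, Irf7, Irf9 and Ifit1 (Isg15, also in this rule, had no probe set). Of the pathway and marker lists, genes past the threshold and some of those with the largest differences are named. Scanner files were not used here.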

Additional observations from a re-analysis of the deposited data

Results flagged for a closer look

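Among 68 groups of 4 arrays (34 genes in each stage), 7 held an array whose gap to its nearest neighbour was, as a ratio to the range of the group, over Dixon's critical value for 4 values. Chance gives about 1 in 20, or 3.4 groups. In 5 of the 7 the array was OT7 PD-SCC replicate 2, the highest of its group. The ratio was 0.96 for Ifit1 (7.83, against 4.19 to 4.34 on the other 3 arrays), 0.913 for Ifit3, 0.872 for Gbp3, 0.864 for Gbp2 and 0.846 for Tlr3. Genes of 1 response share their arrays, so these are not separate events. In WD-SCC cells the ratio was 0.909 for Ifi27, where the unnumbered OT7 array was highest (8.46, against 7.02 to 7.16), and 0.933 for Gbp3, where OT7 replicate 2 was highest at 3.98, under the control of that array (4.13).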

How the results depend on the processing

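Of 741 values of the 34 genes over 22 alternatives for the stage difference, 640 kept their sign and their side of the threshold, 31 kept the sign and lost the call, 8 gained a call and 62 changed sign, in 17 genes and never past the threshold. With lineage as a block, leaving out either array of OT14 or OT15 gives the same stage fit as leaving out that lineage. These alternatives thus count the same fits more than once. Changed signs are given below for the 15 genes described array by array, a choice made after the values of all 34 were seen. The remaining ones were among the 19 genes given by range and count. The replicate block, here the lineage, changed no count: without the block 1 gene was higher and 3 lower, with a median of -0.08. With the OT7 arrays of a stage averaged 1 was lower (401 genes of the whole table passed). With cyclic loess 0 were higher, and with values raised to the control 2 were higher and 6 lower, when 10511 genes passed because the control itself averaged 3.69 in PD-SCC and 4.11 in WD-SCC. Without lineage OT7 0 were lower, without OT14 0 were higher, and without OT15 0 were higher and 1 lower. Leaving out each array gave 0 to 1 higher, 1 to 4 lower and a median of -0.44 to 0.09, while 886 to 1689 genes of the whole table passed. Within OT7, 3 passed with the filter on dim genes (1814 of the 9878 genes kept) and 2 with a trended and robust prior (1809 of all genes). Leaving out an array of OT14 or OT15 could not change the OT7 test, since its spread comes from the OT7 pairs alone. The count thus stayed at 1 (1551 of all genes). Leaving out an OT7 array leaves 1 array in a stage of OT7, and those counts are not given. Irf9, with 0.12, was at -0.06 with OT7 averaged, -0.22 with cyclic loess, -0.08 with the 75th percentile, -0.42 without OT7 and -0.46 to 0.48 without single arrays. Oasl2, with 0.20, was at -0.17 with cyclic loess, -0.0048 with the 75th percentile, -0.08 with array weights, -0.38 without OT14 and -0.60 to 1.40 without single arrays. Rtp4, with 0.07, was at -0.16 with the mean of probe sets, -0.30 with cyclic loess, -0.13 with the 75th percentile, -0.19 with array weights, -0.32 without OT14 and -0.67 to 0.97 without single arrays. The cause of these changes was not tested. The excess of OT7 PD-SCC replicate 2 was recomputed under alternatives chosen after seeing the data: 21 genes were at least 2-fold higher with the mean of probe sets, cyclic loess and the 75th percentile, 20 with values raised to the control, and 17 of the 27 left by the filter on dim genes. Signal over background limits Ifit2, Mx1, Mx2, Gbp3, Eif2ak2, Oas3 and Parp9, which were under the control on all 4 WD-SCC arrays.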
